A study of Mus musculus with 8 samples.

Results

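The interleukin 7 (IL-7) receptor and STAT5 pathway was described through 9 genes, which were the rows of the deposited tables whose symbol was Il7r, Il2rg, Jak1, Jak3, Stat5a, Stat5b, Cish, Socs2 or Socs3, out of 52550 genes in all. RNA had been sequenced from cell fractions sorted as pre-pro-B (positive for AA4.1 and B220, negative for CD24 among others) and pro-B (positive for B220 and CD43, negative for IgM) from the bone marrow of untreated C57BL/6J mice, either wild type (WT) or lactoferrin knockout (Lf-/-, a germline loss of Ltf in every cell type, so that the marrow stroma lacked lactoferrin as well). Of the 7 libraries, 4 came from pre-pro-B fractions (2 of each genotype) and 3 from pro-B fractions (1 WT, 2 Lf-/-), and another library labelled WT pro-B was not used here. The controls were age-matched littermates, and the age was not given. The study's methods give 3 mice for each group and its legends 2 repeats, and nothing states whether a library came from 1 mouse or from pooled mice, so p-values measure only the spread between these libraries.

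IL-7 is made by bone marrow stromal cells and mouse B cells cannot develop in the marrow without it. It binds a receptor built from the specific alpha chain, encoded by Il7r, and the common gamma chain, encoded by Il2rg, which several other interleukin receptors use too. JAK1 sits on the alpha chain and JAK3 on the gamma chain, and together they phosphorylate STAT5A and STAT5B, which enter the nucleus and switch on survival genes and the feedback inhibitors CISH, SOCS2 and SOCS3. The comparison of genotypes asks how this pathway's transcripts differed in the sorted fractions of mice without lactoferrin.

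STAT5 binds the palindrome TTCNNNGAA, which reads the same on both strands, and the letters around it are shown because they mark where these genes carry the pathway's own recognition sequence near their start. RefSeq promoter windows of 300 bases (250 before and 50 after an annotated start, build GRCm38.p6) were found for 8 of the 9 genes in 10 windows. Socs2 had no window. The palindrome was in the windows of 3 genes, with the match in capitals, 5′ to 3′ on the gene's own strand.
Il7r, chr15:9530000-9530028, minus strand: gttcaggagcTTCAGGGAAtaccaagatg
Socs3, chr11:117969502-117969530, minus strand: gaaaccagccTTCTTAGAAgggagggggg
Cish, chr9:107296654-107296683, plus strand: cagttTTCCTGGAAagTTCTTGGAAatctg
The matches started at base 109 of the window in Il7r and at base 97 in Socs3. Cish held a pair of matches, starting at bases 251 and 262. For comparison, 8.30% of all 32851 promoter windows held the palindrome at least once, and 16 windows (0.0487%) held it more than once within 30 bases. A match is a run of letters in this window and does not show binding.

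The Ltf transcript was at 2143, 2731 and 2650 FPKM (fragments scaled to transcript length and library total) in the 3 WT libraries and between 88.2 and 168 in the 4 Lf-/- libraries, with no overlap. Depth, read from the step between low values, was 10900000 to 15400000 fragments in 6 libraries and had no readable step in the other, Lf-/- pre-pro-B replicate 2. That library stood apart: 678 of the 7741 genes with at least 1 FPKM in all of the others (8.76%) were listed at 0 in it, against at most 2 such genes elsewhere, and its typical gene differed from the other libraries by 0.84 to 1.07 on the log2 scale, against 0.28 to 0.61 among the rest. The labelled cell types were not the main source of RNA. A list of 15 neutrophil genes took 24.0% to 51.4% of summed FPKM, and 12 early B lineage genes took 0.0226% to 0.336%. Cd24a (CD24), which the pre-pro-B gate excludes, was at 292 to 471 FPKM in pre-pro-B and 197 to 513 FPKM in pro-B libraries, and the stages differed in it by -0.33 ± 0.31 (pro-B minus pre-pro-B, log2, SE; limma adjusted p = 0.947). Of the gate markers for which cells were positive, Ptprc (B220 is an isoform of its product), Spn (CD43) and Cd93 (AA4.1) were above 1 FPKM in every library. Ighm encodes the heavy chain of IgM, for which the pro-B gate is negative. It was at 385 to 960 FPKM in the pro-B libraries and at 746 to 4830 FPKM in the pre-pro-B libraries, whose gate does not use IgM. The gates sort on protein, and these values are of RNA.

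Both receptor genes lay higher in every Lf-/- library than in every WT library. This arrangement was found in 9.87% of the 10793 genes that reached 1 FPKM in 2 or more libraries. Il7r (GRCm38 chromosome 15, 9505788 to 9530176) was at 2.25 FPKM in both WT pre-pro-B libraries and at 10.2 and 21.2 FPKM in the Lf-/- pre-pro-B libraries. Among pro-B fractions the WT library had 1.48 FPKM and those of Lf-/- had 8.06 and 4.33 FPKM. Every Lf-/- library lay above every WT library at both stages. The ratio of Lf-/- to WT mean FPKM was 6.98 for pre-pro-B, 4.53 there without Lf-/- replicate 2, and 4.18 for pro-B. These values rested on an estimated 115, 125 and 96 fragments for WT (the last of them pro-B), 520 for Lf-/- pre-pro-B replicate 1, and 415 and 311 for the Lf-/- pro-B libraries. The exact 95% Poisson interval ran from 1.20 to 1.81 FPKM in WT pro-B and from 3.86 to 4.84 FPKM in Lf-/- pro-B replicate 2, the closest pair within that stage, and such intervals cover counting error only.

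Il2rg (chromosome X, 101264378 to 101268255) had the highest level per length of the 9 genes in every library. It was at 34.5 and 24.1 FPKM in WT pre-pro-B and at 46.0 and 67.3 FPKM in Lf-/- pre-pro-B. The WT pro-B library had 19.5 FPKM and those of Lf-/- had 96.6 and 64.6 FPKM. The genotypes did not overlap at either stage, and the highest levels were in Lf-/- pro-B, whereas those of Il7r were in Lf-/- pre-pro-B. The ratio of mean FPKM was 1.93 for pre-pro-B and 4.14 for pro-B. In these bulk fractions, more cells of a type that carries a transcript and more of it in each cell cannot be told apart.

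**Figure D1:**
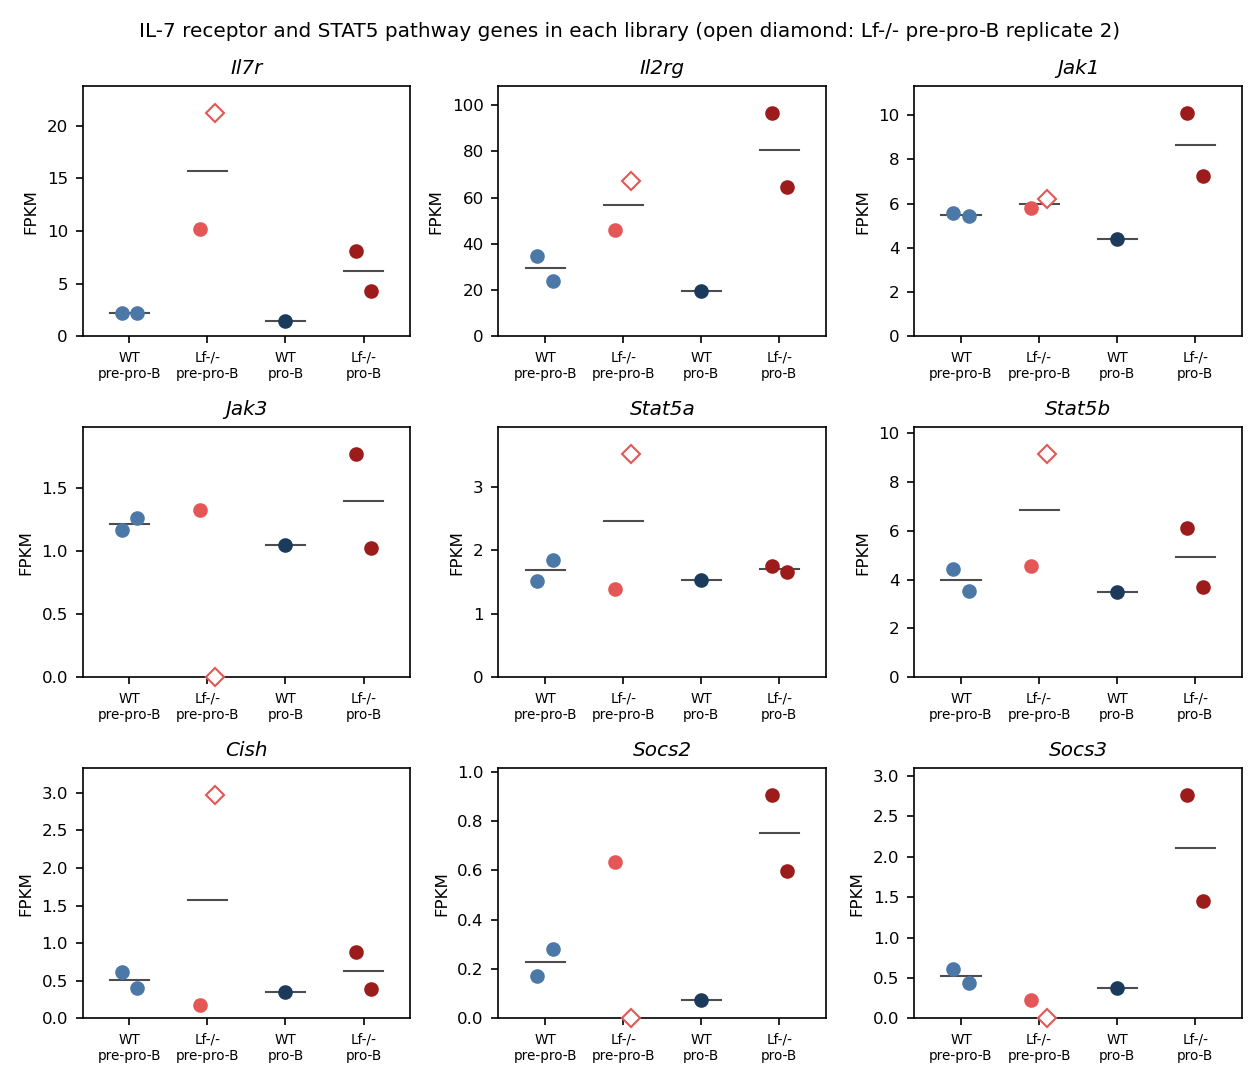
FPKM (vertical axes, linear, from 0) of the 9 genes in the 4 groups, with a point for each library and a bar at the group mean, left out where a library is listed at 0. The open diamond is Lf-/- pre-pro-B replicate 2, which lies highest for Il7r at 21.2 FPKM and Cish at 2.97 FPKM and is listed at 0 for Jak3, Socs2 and Socs3.

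The receptor-bound kinases differed less. Jak1 (chromosome 4, 101152367 to 101265282) was at 5.59 and 5.42 FPKM in WT pre-pro-B and 5.79 and 6.21 FPKM in Lf-/- pre-pro-B. It was at 4.38 FPKM in WT pro-B and 10.1 and 7.23 FPKM in Lf-/- pro-B. Each Lf-/- library was thus above each WT library, but in pre-pro-B by a margin smaller than the counting interval, which ran from 5.27 to 6.34 FPKM for Lf-/- replicate 1. After median-ratio scaling, which gives every library the same typical level, Jak1 overlapped between the genotypes. Jak3 (chromosome 8, 71676296 to 71690575) was at 1.16 and 1.26 FPKM in WT pre-pro-B and at 1.32 FPKM in Lf-/- replicate 1, and was listed at 0 in Lf-/- replicate 2. Its pro-B values, 1.05 FPKM for WT against 1.77 and 1.02 FPKM for Lf-/-, overlapped. Jak1 overlaps Raver2 on the opposite strand in the annotation, and the strand used in counting was not given in the sources used here. Jak3 and Insl3, and likewise Il2rg and Gm20489, overlap on the same strand, where strand does not separate shared reads.

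Both STAT5 genes lie on chromosome 11 (Stat5a at 100859351 to 100885169, Stat5b at 100780731 to 100850724). Stat5a, which has a wide role in cytokine responses, was at 1.51 and 1.85 FPKM in WT pre-pro-B and 1.39 and 3.52 FPKM in Lf-/- pre-pro-B. The pro-B values were 1.53 FPKM for WT, then 1.75 and 1.65 FPKM for Lf-/-. All libraries but Lf-/- pre-pro-B replicate 2 fell between 1.39 and 1.85 FPKM, and the counting intervals of those at either end, 1.14 to 1.68 and 1.57 to 2.16 FPKM, overlapped. Stat5b was at 4.42 and 3.55 FPKM in WT pre-pro-B, 4.54 and 9.15 FPKM in Lf-/- pre-pro-B, 3.48 FPKM in WT pro-B, and 6.10 and 3.72 FPKM in Lf-/- pro-B. It was above Stat5a in every library. The genes are close paralogs whose reads the counting could split between them, and Stat5a also overlaps Stat3 on the opposite strand.

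The feedback inhibitors, whose transcripts rise when STAT5 or a related STAT is active, were low. The values for these 3 genes at 1 FPKM or more were Cish in Lf-/- pre-pro-B replicate 2 and Socs3 in both Lf-/- pro-B libraries. Cish (chromosome 9, 107296026 to 107302784), an SH2 protein that dampens cytokine receptors, was at 0.613 and 0.409 FPKM in WT pre-pro-B and 0.182 and 2.97 FPKM in Lf-/- pre-pro-B. The pro-B values were 0.351 FPKM for WT, then 0.876 and 0.388 FPKM for Lf-/-. The Lf-/- values lay on both sides of WT in pre-pro-B, and the interval of the lower Lf-/- pro-B library, 0.275 to 0.533 FPKM, held the WT pro-B value.

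Socs2 (chromosome 10, 95385362 to 95417180), a feedback inhibitor best known from growth hormone signalling, was at 0.171 and 0.283 FPKM in WT pre-pro-B and at 0.635 FPKM in Lf-/- replicate 1, and was listed at 0 in Lf-/- replicate 2. In pro-B it was at 0.0756 FPKM in WT, an estimated 10 fragments, and at 0.906 and 0.598 FPKM in Lf-/-, an estimated 95 and 88 fragments. Leaving out the library in which it was listed at 0, every Lf-/- library lay above every WT library. Without that library, 16.4% of the genes that reached 1 FPKM in 2 or more libraries were so arranged, and Socs2 did not reach that level. Socs3 (chromosome 11, 117966079 to 117970047), which binds the receptors of the IL-6 and G-CSF families as well as JAK kinases, was at 0.614 and 0.437 FPKM in WT pre-pro-B and at 0.223 FPKM in Lf-/- replicate 1, and was listed at 0 in Lf-/- replicate 2. The WT pro-B library had 0.380 FPKM and those of Lf-/- had 2.77 and 1.45 FPKM. In pro-B both Lf-/- libraries were above WT, on an estimated 88 and 64 fragments against 15. In pre-pro-B the Lf-/- values were the lower ones, but replicate 1 rested on an estimated 7 fragments, with a counting interval of 0.0897 to 0.460 FPKM that held the lower WT value, and replicate 2 is the library with many genes listed at 0. The ratio of mean FPKM in pro-B was 9.94 for Socs2 and 5.55 for Socs3, larger than for the receptor genes and resting on the low WT values. The arrangement of Socs3, below WT in pre-pro-B and above it in pro-B with no overlap, was found in 11.3% of the 10793 genes that reached 1 FPKM in 2 or more libraries. Over pre-pro-B alone, Socs3 was the 1 member with both Lf-/- libraries below both WT libraries, where 17.8% of genes were so arranged, and Il7r, Il2rg, Jak1 and Stat5b were the 4 above, where 15.1% were.

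Tests used limma on log2(FPKM + 1), a scale that understates the change of low genes, with Benjamini-Hochberg adjustment over all genes that passed a filter of 1 FPKM or more in 2 or more libraries. Il7r, Il2rg, Jak1, Jak3, Stat5a and Stat5b were tested in every comparison. Socs3 passed the 7-library filter only through the Lf-/- pro-B libraries, where it was high, so its differences are given as sizes with no p and it is left out of the counts of members called. Cish and Socs2 did not pass. None of the members tested had an adjusted p under 0.05 in any of the 5 comparisons (the genotypes within each stage and over both, the stages, and their interaction). Over all genes, 0 of 9720 were called between genotypes in pre-pro-B (284 at an unadjusted p under 0.05), 0 of 10793 in pro-B (467 unadjusted), and 20 of 10793 (0.185%) over both stages (774 unadjusted). By stage 1 gene (0.00927%) was called, with 260 at an unadjusted p under 0.05, and in the interaction 0, with 296.

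Over both stages, with 3 WT and 4 Lf-/- libraries and stage in the fit, Il7r was higher in Lf-/- by 1.96 ± 0.38 (log2, SE; unadjusted p = 0.000674, adjusted p = 0.147) and Il2rg by 1.34 ± 0.35 (unadjusted p = 0.0044, adjusted p = 0.321). These were the 2 of 6 counted members with an unadjusted p under 0.05, where 6.48% of all genes were called as higher and 0.695% as lower by that rule. The call for Il7r turned on single choices. Its adjusted p was 0.0293 without Lf-/- pre-pro-B replicate 2 (log2 difference 1.63 ± 0.31), where 123 of 10529 genes (1.17%) were called, and 0.0302 when only genes with at least 1 FPKM in every library were tested. Over all its alternatives the adjusted p ran from 0.0293 to 0.755. The difference was positive under every one of them, between 1.63 and 2.36. For Il2rg it was between 0.92 and 1.58, and the adjusted p was never under 0.0676. For single genes, an exact two-sided permutation test of 4 against 3 libraries gave p = 0.0571 for Il7r, Il2rg and Jak1, the smallest it can give.

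Il7r, Il2rg and Jak1 were the 3 of 9 members whose every Lf-/- library lay above every WT library, an arrangement found in 9.87% of the 10793 genes. None of the 9 lay wholly below (1.13% of genes). The median of all genes was itself shifted by 0.21 in this comparison and by -0.059 after median-ratio scaling. Relative to that median, Il7r was higher by 1.75 and Il2rg by 1.14, and after scaling by 1.75 and 1.05. The other members past the filter differed from it less: Jak1 by 0.19, Stat5a by 0.0094, Stat5b by 0.30 and Jak3 by -0.45, the last resting on the value listed at 0. For Socs3, given as a size only, the value was -0.028. None of Jak1, Stat5a, Stat5b and Jak3 had an unadjusted p under 0.05. The 95% intervals of their log2 differences were wide, from -0.31 to 1.10 for Jak1, -0.53 to 0.96 for Stat5a and -0.28 to 1.29 for Stat5b.

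**Figure D2:**
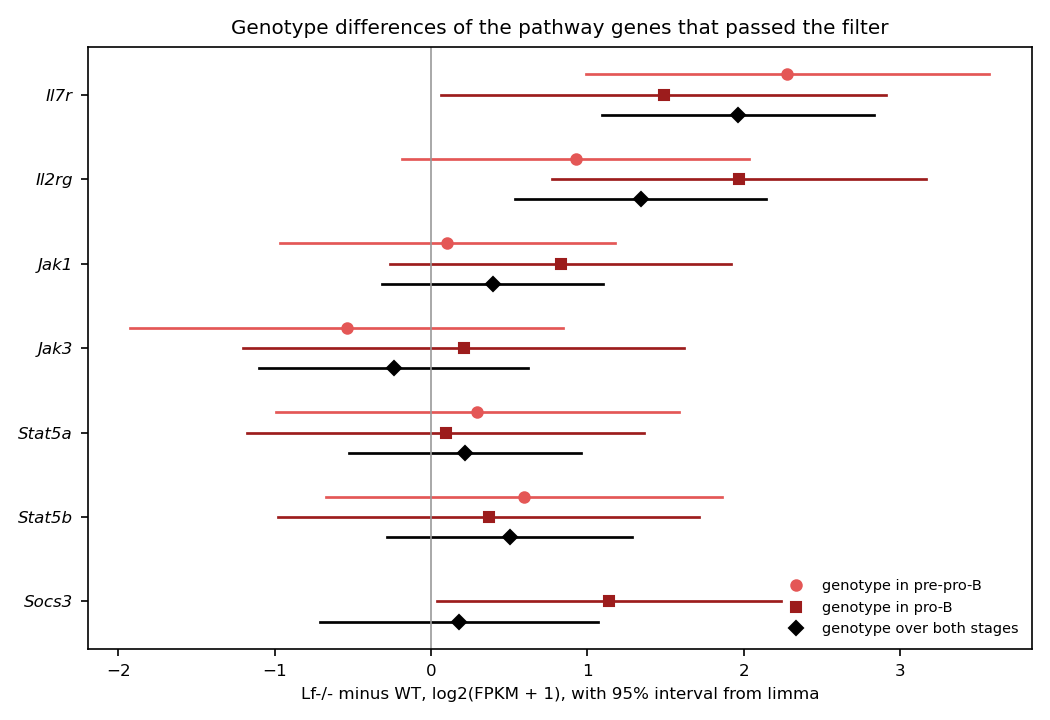
Difference between Lf-/- and WT (horizontal axis, log2(FPKM + 1)) of the 7 members that passed the filter, with limma's 95% interval, in pre-pro-B (circles), pro-B (squares) and over both stages (diamonds). Leaving Socs3 aside, the intervals over both stages that lie above 0 are those of Il7r (1.09 to 2.83) and Il2rg (0.54 to 2.14). Socs3 did not pass the filter in pre-pro-B and passed it elsewhere only through the Lf-/- pro-B libraries.

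Within pre-pro-B, with 2 libraries of each genotype, Il7r was higher in Lf-/- by 2.28 ± 0.52 (log2, SE; unadjusted p = 0.00525, adjusted p = 0.941), and was the 1 of 6 tested members past the unadjusted threshold, where 2.0% of genes were called as higher and 0.926% as lower. Without Lf-/- replicate 2 the difference was 1.78 ± 0.27 (adjusted p = 0.427). Without Lf-/- replicate 1, which leaves the library that stands apart as the lone Lf-/- sample, it was 2.77 (adjusted p = 0.0155), Il2rg reached 1.19 (adjusted p = 0.0479) and Jak3 -1.15 (adjusted p = 0.0215), among 3338 genes called. An exact permutation test of 2 against 2 libraries cannot give a p below 0.333.

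In pro-B, where the lone WT library was assumed to vary like the other groups, Il2rg was higher in Lf-/- by 1.97 ± 0.51, Il7r by 1.49 ± 0.60 and Socs3 by 1.14 ± 0.47 (log2, SE). The unadjusted p was 0.00594 for Il2rg and 0.043 for Il7r, and each had an adjusted p of 0.822. They were the 2 of 6 counted members past the unadjusted threshold, where 4.18% of genes were called as higher and 0.148% as lower. The whole pro-B comparison was shifted: both Lf-/- libraries lay above the WT library in 75.3% of genes, and for 8 of the 9 members. Both lay below it in 6.90% of genes and for no member. The median gene differed by 0.48, and by 0.014 after median-ratio scaling. With that scaling Il2rg was higher by 1.34 (unadjusted p = 0.0141), Il7r by 1.03 (unadjusted p = 0.0678) and Socs3 by 0.87, while Jak3, Stat5a and Stat5b changed sign to -0.15, -0.31 and -0.16.

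Between stages, Il7r was lower in pro-B than in pre-pro-B by 0.86 on average (log2 difference -0.86 ± 0.38, SE; unadjusted p = 0.0515, adjusted p = 0.947), a difference that did not pass the threshold. After median-ratio scaling (-0.80, unadjusted p = 0.046) and quantile normalization (-0.79, unadjusted p = 0.0403) it was under 0.05 before adjustment. With the values as deposited no member was called by stage at an unadjusted p under 0.05, where 1.25% of genes were called as higher in pro-B and 1.16% as lower. By mean FPKM the groups were ordered for Il7r as WT pro-B (1.48), WT pre-pro-B (2.25), Lf-/- pro-B (6.20 ± 2.64, SD) and Lf-/- pre-pro-B (15.7 ± 7.80, SD), and no neighbours in that order overlapped. For Il2rg the order was WT pro-B (19.5), WT pre-pro-B (29.3 ± 7.35, SD), then Lf-/- pre-pro-B (56.7 ± 15.1, SD) and finally Lf-/- pro-B (80.6 ± 22.6, SD), and the last pair overlapped. The genotype difference was tested for a change between stages by an interaction term. For Il7r it was -0.79 ± 0.78 (unadjusted p = 0.343) and for Il2rg 1.04 ± 0.65 (unadjusted p = 0.154). None of the 6 counted members passed the unadjusted threshold, where 2.53% of genes were called as positive and 0.213% as negative, and the median of all genes was 0.45. For Socs3 the value was 1.60 ± 0.60.

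Like Il7r, the early B lineage genes were higher in every Lf-/- library in sum. The 12 genes of that list (among them Ebf1, Pax5, Cd79a, Cd79b, Vpreb1, Igll1, Rag1, Rag2, Dntt, Blnk and Foxo1, from the transcription factors that start the lineage to the parts of the pre-B cell receptor) summed to 512 and 446 FPKM in WT pre-pro-B and 189 FPKM in WT pro-B. They summed to 2801 and 2139 FPKM in Lf-/- pre-pro-B and to 2385 and 1394 FPKM in Lf-/- pro-B. Of the 11 that passed the filter, 10 were higher in Lf-/- over both stages at an unadjusted p under 0.05 and 3 at an adjusted one. Of all genes, 6.48% were called as higher at an unadjusted p and 0.185% were called at an adjusted one. After median-ratio scaling all 11 were still positive, against 44.4% of all genes. With that scaling 9 and 0 were called, against 436 of 10793 genes as higher and 7 at an adjusted p. Rag2 was listed at 0 in Lf-/- pre-pro-B replicate 2 and Rag1 was at 0 in WT pro-B. Cd79b, a signalling chain of the B cell receptor, was higher by 2.82 ± 0.30 (log2, SE; limma adjusted p = 0.0136) and Cd79a, its partner, by 2.79 ± 0.34 (adjusted p = 0.0273). These differences were larger than that of Il7r.

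Expressed as a percentage of the list's sum in the same library, Il7r was at 0.439 and 0.504 for WT pre-pro-B and 0.784 for WT pro-B. The Lf-/- values were 0.364 and 0.992 in pre-pro-B and 0.338 and 0.311 in pro-B. On this scale the genotypes overlapped, and without Lf-/- pre-pro-B replicate 2 every Lf-/- value lay below every WT value, the reverse of the FPKM. The sum itself did not overlap between genotypes (189 to 512 FPKM in WT, 1394 to 2801 in Lf-/-). A gene that is unchanged, or rises less than the sum, therefore falls on this scale. The share of all genes arranged this way was not counted. The ratio of Lf-/- to WT means was 0.870, and 0.903 when Cd79a was left out of the sum. Cd79b stayed in it, so the percentage mostly sets Il7r against these chains of the B cell receptor. For Il2rg the same percentage, chosen after the data were seen, was 5.40 to 10.3 in WT and 1.64 to 4.64 in Lf-/- libraries, with no overlap. The part of the lineage genes in the difference of Il7r and Il2rg was not tested beyond these ratios.

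**Figure D3:**
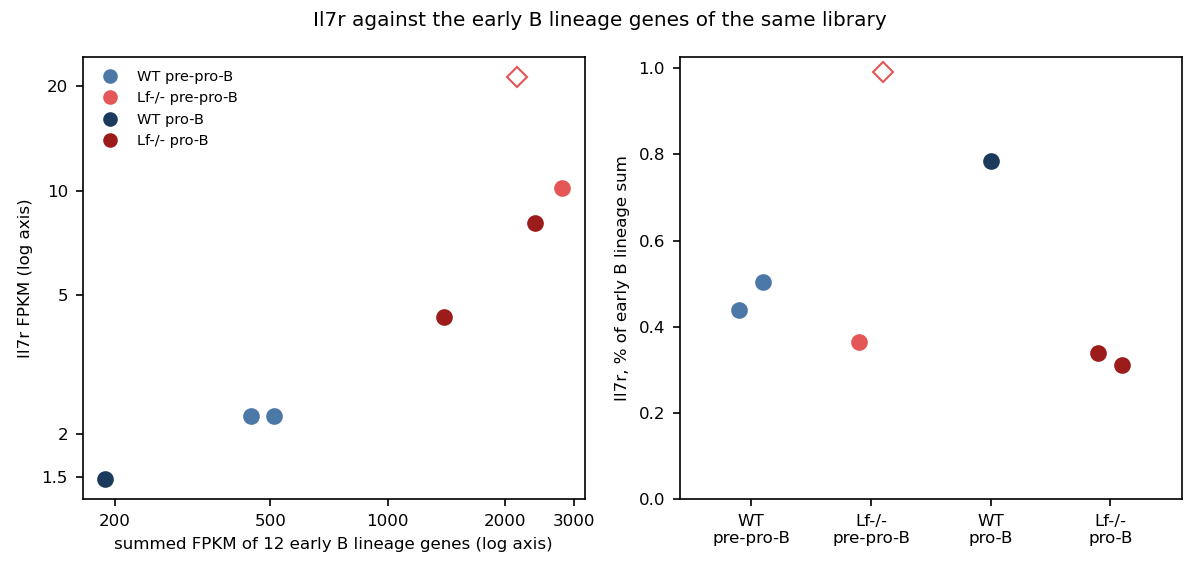
Left, Il7r (vertical, FPKM, log axis) against the summed FPKM of 12 early B lineage genes (horizontal, log axis), with a point for each of 7 libraries coloured by group. Right, Il7r as a percentage of that sum, where the open diamond, Lf-/- pre-pro-B replicate 2, is highest at 0.992 and the other Lf-/- libraries lie between 0.311 and 0.364, below the 3 WT libraries at 0.439 to 0.784.

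Marker lists of other cell types were summed as well. Calls are over both stages unless said otherwise, where 6.48% of all genes were called as higher and 0.695% as lower at an unadjusted p. At an adjusted p 0.185% were called. The mature B cell genes summed to 37.8 to 53.8 FPKM in WT and 176 to 393 FPKM in Lf-/- libraries, with Fcmr, the receptor for IgM, higher by 3.33 ± 0.39 (adjusted p = 0.021). The plasmacytoid dendritic cell genes ran from 39.6 to 44.7 FPKM in WT and from 53.5 to 224 FPKM in Lf-/-, and 3 of 5 measured genes were higher at an unadjusted p under 0.05 and 0 at an adjusted one. Of 4 measured lymphoid progenitor genes, 2 were higher at an unadjusted p, Tcf3 and Ly6d, the latter by 2.85 ± 0.30 (adjusted p = 0.0136). Kit, below the filter and named outside the rule for these lists, lay at 0.765 to 1.09 FPKM in WT and 0.578 FPKM or lower in Lf-/-. It was listed at 0 in Lf-/- pre-pro-B replicate 2. Of the genes past the filter, 1.13% had every Lf-/- library below every WT library. The neutrophil genes summed to 286968 to 428983 FPKM in WT and 166639 to 307482 FPKM in Lf-/-, and those sums overlapped, with 0 of 15 genes higher and 3 lower at an unadjusted p. The monocyte and macrophage genes summed to 973 to 1832 FPKM in WT and 582 to 860 FPKM in Lf-/-, with 1 of 6 lower at an unadjusted p. That gene, Ly6c2, made up most of these sums, at 956 to 1812 FPKM in WT and 563 to 832 FPKM in Lf-/-. Over both stages 4 of the 6 were positive, as were 66.8% of all genes. The sums of the T and NK cell genes (906 to 1297 FPKM in WT, 424 to 1009 in Lf-/-) overlapped. Nkg7 made up most of them, at 885 to 1283 FPKM in WT and 324 to 919 in Lf-/-. Over both stages 8 of 9 measured genes of that list were positive, against 66.8% of all genes, with 0 higher at an unadjusted p under 0.05. Nkg7 was lower (-1.09 ± 0.41, unadjusted p = 0.0257). In pro-B, 4 of the 9 were higher at an unadjusted p, where 4.18% of all genes were. The erythroid sums (8903 to 31246 FPKM in WT, 16920 to 62404 in Lf-/-) overlapped. The part of these lists in the values of the members was not tested. Per 1000000 FPKM of the neutrophil sum, the values of Socs3 were 2.06 and 1.52 for WT pre-pro-B, 0.725 and 0 for Lf-/- pre-pro-B, 0.885 for the WT pro-B library, then 11.1 and 5.14 for Lf-/- pro-B. The libraries stood in the same order for Socs3 as in FPKM. The neutrophil sum rests on a few abundant genes, and the list did not move as one in pro-B, where 7 of 15 genes were positive. S100a9 was at 113079 FPKM in WT pro-B and 72047 and 74794 FPKM in Lf-/- pro-B. Cxcr2, named after its values were seen, was at 9.54 FPKM in WT pro-B and 47.9 and 30.8 FPKM in Lf-/- pro-B. The part of neutrophils in the level of Socs3 was not tested.

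The profiles closest to a member over the 7 libraries were ranked by the root mean square difference of centred log2 values among 9876 genes with a mean of at least 1 FPKM. For Il7r these were Uchl1, a ubiquitin hydrolase (0.15), Plk2, a serine/threonine kinase (0.21), Cd38, an ectoenzyme of lymphocytes (0.26), Atp1b1, a sodium pump subunit (0.27), and CT030182.4 (0.27), against a spread of Il7r itself of 1.07. Uchl1 was at 1.64 and 1.66 FPKM in WT pre-pro-B, 6.35 and 13.7 FPKM in Lf-/- pre-pro-B, 0.688 FPKM in WT pro-B, and 6.72 and 2.98 FPKM in Lf-/- pro-B. For Socs3 they were Ctla2b (0.12), Snai1 (0.13), 2310015A10Rik (0.15), Mmp25 (0.16) and Cd27 (0.17), against a spread of 0.60. All of these were highest in the Lf-/- pro-B libraries, and Ctla2b, at 3.58 and 2.39 FPKM there, was at 0.77 FPKM or below elsewhere. For Cish they were Xpo4, Aida, Cfp, Mtfmt and Tamm41 (0.094 to 0.10, against a spread of 0.54), each highest in Lf-/- pre-pro-B replicate 2. Likeness over 7 libraries that share depth and cell makeup is a description.

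Around the members, genes of the same pathway were grouped by role. The cytokines and other gamma chain family receptors had 6 of 9 genes measured above the filter. Their median difference over both stages was 0.05, against 0.21 for all genes. Of the 6, 4 were positive, against 66.8% of all genes, and 1 after median-ratio scaling, against 44.4%. At an unadjusted p under 0.05, 1 of the 6 was called as higher, against 6.48% of all genes. That gene was Il4ra, the IL-4 receptor alpha chain, at 1.24 to 1.57 FPKM in WT and 2.66 to 4.31 FPKM in Lf-/- libraries. It was higher by 0.91 ± 0.30 (unadjusted p = 0.0148, adjusted p = 0.513). Tslp, a cytokine that shares the IL-7 receptor alpha chain, had the second lowest p of the list at 0.441. Il7 itself was at 0.468 FPKM or below in all libraries. Il2rb, the beta chain shared by the IL-2 and IL-15 receptors, was named after its values were seen: it was at 2.05 to 2.49 FPKM in WT, 1.35 FPKM in Lf-/- pre-pro-B replicate 1, and 17.4 and 6.67 FPKM in Lf-/- pro-B, and was listed at 0 in Lf-/- pre-pro-B replicate 2. Ncr1, a receptor of NK cells, likewise named after its values were seen, had 0.632 FPKM for WT pro-B and 6.93 and 6.78 FPKM for Lf-/- pro-B. The part of NK cells in the level of Il2rb was not tested.

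None of the 7 other JAK and STAT genes was called over both stages at an unadjusted p under 0.05. Their median difference was 0.23 with 6 of 7 positive, against 3 of 7 after median-ratio scaling. Of all genes, 66.8% were positive, and 44.4% after that scaling. The lowest p-values of the 7 were those of Stat6, the IL-4 transducer (0.49 ± 0.30, unadjusted p = 0.136), and Jak2 (0.42 ± 0.28, unadjusted p = 0.172). Of the 5 other SOCS genes, only Socs1, an inhibitor of JAK kinases, passed the filter. Socs1 was at 3.39 and 1.08 FPKM in WT pre-pro-B, 13.3 and 1.46 FPKM in Lf-/- pre-pro-B, 1.06 FPKM in WT pro-B, and 7.42 and 3.85 FPKM in Lf-/- pro-B. The library that stands apart overlapped WT, and the other Lf-/- libraries did not. Socs1 was higher in Lf-/- by 1.24 ± 0.61 (unadjusted p = 0.0732, adjusted p = 0.689), and by 1.94 (adjusted p = 0.0307) without Lf-/- pre-pro-B replicate 2. Among the phosphatases and other inhibitors, 7 of 9 measured genes were positive, against 66.8% of all genes. At an unadjusted p under 0.05, 1 was called as higher, against 6.48% of all genes. It was Ptpn6, which encodes the haematopoietic phosphatase SHP-1, higher by 0.83 ± 0.37 (unadjusted p = 0.049, adjusted p = 0.689). After median-ratio scaling Ptpn6 was at 0.48 (unadjusted p = 0.1), and 5 of the 9 were positive, against 44.4% of all genes. Ptpn1 followed at 0.60 ± 0.32 (unadjusted p = 0.0876).

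All 9 survival and growth targets were positive over both stages, in each scaling, and their median was 0.75, against 0.21 for all genes. Of all genes, 66.8% were positive, and 44.4% after median-ratio scaling. Of the 9, 2 had an unadjusted p under 0.05, where 6.48% of all genes were called as higher. After median-ratio scaling the median of the 9 was 0.41 and 1 was called. Pim2, a STAT5 target that encodes a survival kinase, was at 5.68 and 2.96 FPKM in WT pre-pro-B, 10.4 and 25.4 FPKM in Lf-/- pre-pro-B, 1.31 FPKM in WT pro-B, and 11.7 and 8.41 FPKM in Lf-/- pro-B. Every Lf-/- library lay above every WT library, as in 9.87% of all genes past the filter. Pim2 was higher in Lf-/- by 1.95 ± 0.40 (unadjusted p = 0.000864, adjusted p = 0.152), and by 1.70 (adjusted p = 0.0459) without Lf-/- pre-pro-B replicate 2. Mcl1, an anti-apoptotic BCL2 relative, was higher by 0.99 ± 0.38 (unadjusted p = 0.0276, adjusted p = 0.632), and by 0.64 (unadjusted p = 0.056) after median-ratio scaling. Osm, a STAT5 target that encodes oncostatin M, was named after its values were seen and was at 8.14 FPKM in WT pro-B and 69.4 and 51.1 FPKM in Lf-/- pro-B, whereas in pre-pro-B it was at 12.8 and 29.9 FPKM in WT and 8.63 and 19.3 FPKM in Lf-/-.

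The PI3K, AKT and FOXO1 arm, which IL-7 signalling engages beside STAT5, had 5 genes, all measured. All 5 were positive over both stages, as were 66.8% of all genes, with a median of 0.39 against 0.21 for all genes. Of these, 2 had an unadjusted p under 0.05, where 6.48% of all genes were called as higher. After median-ratio scaling 3 of the 5 were positive, against 44.4% of all genes, and the median of the 5 was 0.045. The gene with the lowest p is described here and does not stand for the arm. Foxo1, a transcription factor that drives Il7r and Rag expression and is itself restrained by AKT, was at 2.80 and 0.999 FPKM in WT pre-pro-B, 8.55 and 7.93 FPKM in Lf-/- pre-pro-B, 1.08 FPKM in WT pro-B, and 7.61 and 2.92 FPKM in Lf-/- pro-B. It was higher in Lf-/- by 1.64 ± 0.39 (unadjusted p = 0.00247, adjusted p = 0.247). After median-ratio scaling, which set the median of all genes at -0.059, it was higher by 1.39 (unadjusted p = 0.00716). No gene named here from these pathway lists had an adjusted p under 0.05 with all libraries in the fit. Foxo1 is also on the early B lineage list.

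**Figure D4:**
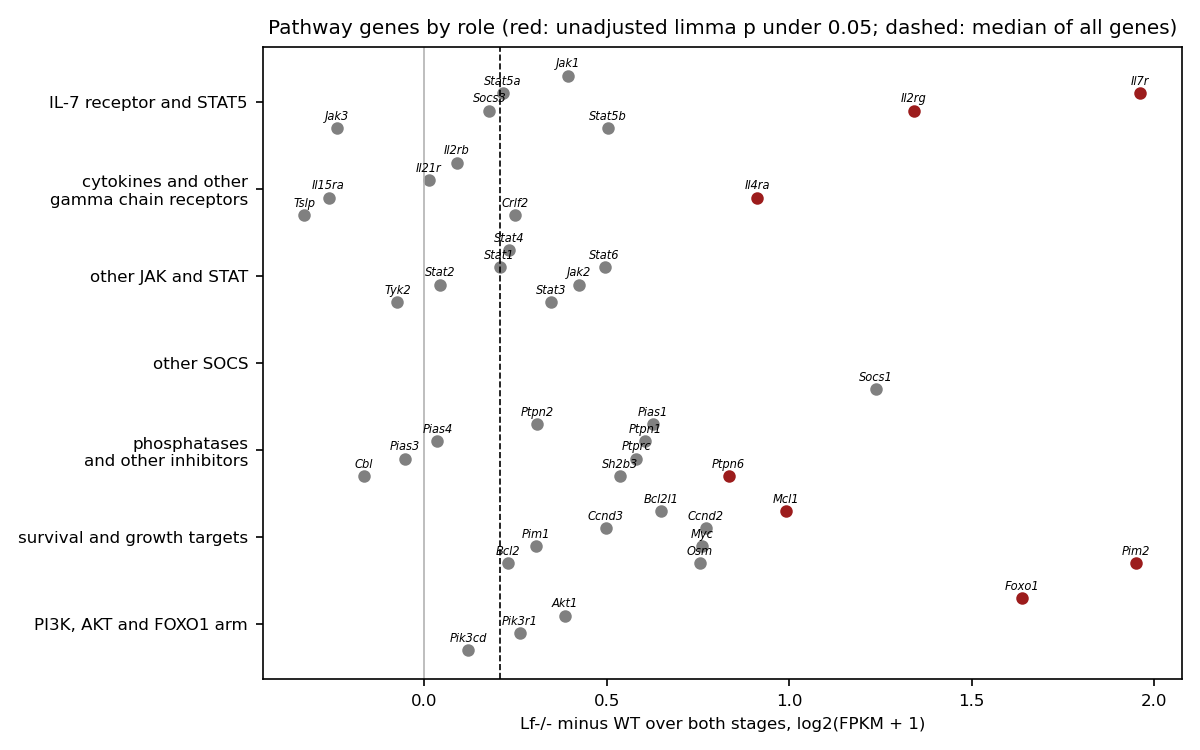
Difference between Lf-/- and WT over both stages (horizontal axis, log2(FPKM + 1)) of the genes described here that passed the filter and others of their lists, in a row for each role, with points red where limma's unadjusted p was under 0.05 and a dashed line at the median of all genes, 0.21. Il7r at 1.96, Pim2 at 1.95, Foxo1 at 1.64 and Il2rg at 1.34 lie farthest to the right, and the 9 survival and growth targets all lie right of the dashed line.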

How the data were processed

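The authors sequenced RNA of sorted fractions on a NovaSeq instrument and deposited 1 table of FPKM values per library, a unit read from the values themselves since no source names it. The submitters' processing notes name TopHat, Cufflinks, HTSeq and DESeq with no versions, and GRCm38. The strand of counting was not given in the sources used here. FPKM are relative to each library's total, so a few abundant genes lower all others. Depth was read from the even steps of low values. In the 6 libraries where it could be read, 25.8% to 35.9% of low values lay on a step, against 10% by an even spread. Fragment counts are thus estimates, and the counting intervals leave out error in them. Of 52550 genes, 52403 matched GENCODE M21, which gave positions.

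Values were fitted as log2(FPKM + 1) with limma 3.58.1 (R 4.3.3), a mean-variance trend and Benjamini-Hochberg adjustment over all genes that reached 1 FPKM in 2 or more libraries: genotype in pre-pro-B (4 libraries), and genotype in pro-B, genotype, stage and their interaction (7 libraries). Fits were tested on simulated data. The rest used scipy 1.17.1, pandas 2.3.3, numpy 2.4.6 and matplotlib 3.10.9 in Python 3.11.15.

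The members and lists were chosen with earlier results of these data known. Named genes were the 9 members, the 2 lowest p-values per pathway list over both stages, gate markers, the 5 nearest profiles of Il7r, Cish and Socs3, and leading genes of cell type lists. Some genes of these lists are not reported here. Kit was named outside these rules, and others are said to be named after their values were seen. Comparisons that share libraries are not independent. Alternatives were 2 scalings, 2 filters, a pseudocount of 0.1, a replicate block, all 7 libraries in the pre-pro-B fit and each library left out. Without Lf-/- pre-pro-B replicate 2 and with median-ratio scaling, the count of members with no overlap was added after seeing the data.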

Additional observations from a re-analysis of the deposited data

Results flagged for a closer look

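Socs3 is listed because its genotype difference ran in opposite directions at the stages: both Lf-/- pre-pro-B libraries lay below both WT libraries, and both Lf-/- pro-B libraries lay above the WT library. The difference in pro-B minus that in pre-pro-B was 1.60 on the log2 scale, and 1.45 without Lf-/- pre-pro-B replicate 2, in which Socs3 and many other genes were listed at 0. It is given with no p and counts as not tested, since Socs3 passed the filter only through the Lf-/- pro-B libraries. The other low value, 0.223 FPKM, had a counting interval of 0.0897 to 0.460 FPKM, which held that of WT pre-pro-B replicate 2. No other member showed this arrangement, which was found in 11.3% of the 10793 genes that reached 1 FPKM in 2 or more libraries. With 1 or 2 libraries in a group, no test for an outlying value within a group was run.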

How the results depend on the processing

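Il7r and Il2rg kept a positive genotype difference in all 3 genotype comparisons under every alternative run. Of 399 values for members under the alternatives, 368 kept direction and side of the adjusted threshold, 5 passed it and 26 changed sign. These include 38 values of Socs3, which is otherwise given as a size only. Of those 38, 36 are among the 368 and 2 changed sign. With median-ratio scaling the sign changed for Jak1 in pre-pro-B (-0.039), for Jak3, Stat5a and Stat5b in pro-B (-0.15, -0.31 and -0.16) and for Stat5a over both stages (-0.030), and with quantile normalization for the same genes (-0.11, then -0.23, -0.39 and -0.21, then -0.084). A pseudocount of 0.1 turned Socs3 over both stages to -0.22. Leaving out libraries changed the sign of Jak3 in pre-pro-B (-1.15 to 0.069), pro-B (-0.020 to 0.44), over both stages (-0.54 to 0.14) and by stage (-0.042 to 0.63). It did so for Stat5a in pre-pro-B (-0.16 to 0.75), over both stages (-0.033 to 0.42), by stage (-0.41 to 0.045) and in the interaction (-0.66 to 0.26), for Stat5b in the interaction (-0.66 to 0.21), for Socs3 over both stages (-0.46 to 0.41), and by stage for Il2rg (-0.17 to 0.50) and Jak1 (-0.020 to 0.45). The cause was not tested.

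Counts of genes at an adjusted p under 0.05 in the pre-pro-B comparison (0) ran from 0 to 3338 with each library left out. At an unadjusted p they (284) ran from 140 to 4416, and were 649 without a filter and 528 with all 7 libraries. In pro-B (0 and 467) they ran from 0 to 1 and from 137 to 2318, were 256 and 1979 without a filter, and the unadjusted count was 270 with median-ratio scaling and 307 with quantile normalization. Over both stages (20 and 774) they ran from 0 to 123 and from 425 to 3033. The adjusted count was 7 with median-ratio scaling, 10 with quantile normalization, 0 without a filter, 63 with 1 FPKM in every library and 9 with a pseudocount of 0.1. By stage (1 and 260) they ran from 0 to 36 and from 139 to 1763. The adjusted count was 0 with quantile normalization, without a filter and with a pseudocount of 0.1, and 6 with 1 FPKM in every library, and the unadjusted count was 626 without a filter and 156 with 1 FPKM in every library. For the interaction (0 and 296) they ran from 0 to 561 and from 90 to 2920, and were 122 and 1608 without a filter. Its unadjusted count was 139 with median-ratio scaling, 170 with quantile normalization, 152 with 1 FPKM in every library and 195 with a pseudocount of 0.1. The highest adjusted counts over both stages and by stage came without Lf-/- pre-pro-B replicate 2, and the other highest counts without Lf-/- pre-pro-B replicate 1, a fit in which the library that stands apart is the lone sample of its group.

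Replicate numbers did not pair the libraries: deviations of same-numbered libraries correlated at 0.039, 0.053 and -0.013 across 10793 genes, which are not independent. With the replicate number as a block, counts were 65 adjusted and 532 unadjusted in pre-pro-B, 456 unadjusted for the interaction, and 0 adjusted by stage, and Stat5a in pro-B turned to -0.080. No member passed the adjusted threshold with the block, and Il7r in pre-pro-B had an adjusted p of 0.139. The count of members with every Lf-/- library above every WT library was 3 (9.87% of all genes), 4 without Lf-/- pre-pro-B replicate 2 (16.4%) and 2 with median-ratio scaling (5.16%). Depth limits Cish, Socs2 and Socs3 most, and no counting interval can be given for Lf-/- pre-pro-B replicate 2.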
